A study of Mus musculus with 16 samples.

Results

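The Tiam1 locus and the neighbouring Krtap cluster on mouse chromosome 16 were described as a domain of trimethylation of histone H3 at lysine 9 (H3K9me3) in small intestinal crypts. The domain was taken as all H3K9me3 peaks that overlap the window from 88.9 to 90.6 Mb (GRCm38), which gave 251 of the 212313 peaks of the series. The members named for it were Tiam1, Krtap7-1 and Krtap8-1. The window was selected because H3K9me3 values were higher in Smarcad1-KO than in WT libraries here, so the H3K9me3 difference between genotypes is given as a description and carries no test. H3K9me2 did not enter that choice, and its 35 regions of the window were tested. All KO values lay above all WT values in the peaks over Krtap8-1 and Krtap7-1 and in 14 of the 20 Tiam1 peaks. Of these 14 peaks, 13 form the flanks of the gene. Over the series, 7.3% of all peaks showed this pattern, and the window was selected on this contrast. The 2 widest peaks of Tiam1, which also had the highest values and lie in the middle of the gene, had overlapping WT and KO values. The limits between flanks and middle were set on these same values, so a larger difference in the flanks follows in part from the division. With that limit, the label of a gained domain describes the flanks and the stretch before the gene rather than its middle. The size of the difference depends on 1 WT library. In the 13 flank peaks the mean difference was 1.07, and 0.59 without WT replicate 3, and relative to the input WT and KO values overlapped in the 5′ flank.

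Whole crypt isolates of the small intestine of male C57BL/6 mice were profiled by ChIP-seq with antibodies against H3K9me3 (ab8898) or H3K9me2 (ab1220). KO mice carried loxP sites around exons of Smarcad1, a chromatin remodelling ATPase, which a Cre recombinase driven by the Villin promoter (Vil-cre) removes in the intestinal epithelium. WT libraries were labelled wild type, with no further statement on Vil-cre or loxP alleles, and the age of the mice was not given in the sources used here. Each mark had 3 libraries of either genotype, and its inputs, made from chromatin that saw no antibody, numbered 1 for WT and 1 for KO. This gave 16 libraries in all. The study describes the libraries of a group as biological replicates, while the labels do not say whether each came from a mouse of its own. Crypt isolates hold stem, proliferating and Paneth cells beside other cells. In such bulk chromatin, a larger fraction of cells with the mark and more of the mark per cell cannot be told apart. The values are histone marks only, so cell type markers could not be checked, and no H3K9me3 peak or H3K9me2 region (0 of each) was annotated to Smarcad1 itself.

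H3K9me3 is laid down by histone methyltransferases and bound by HP1 proteins, and it marks silent chromatin over repeats, gene clusters and some gene bodies. Tiam1 codes for a guanine nucleotide exchange factor that activates the small GTPase Rac, and it acts in epithelial polarity and cell junctions with Par proteins. Krtap genes code for keratin-associated proteins of the hair shaft and lie in clusters of short genes, expressed in hair follicles.

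GENCODE M21 places Tiam1 on the minus strand at chr16:89787111-90143769, so transcription runs from the high to the low coordinates. Krtap8-1 (chr16:89487379-89487952) and Krtap7-1 (chr16:89507703-89508323) lie on the same strand beyond the end of Tiam1. The table of RefSeq promoters (250 bases before to 50 after a start, GRCm38.p6) held 2 of these 3 genes. Both promoters of Tiam1 and the promoter of Krtap8-1 are shown because each overlaps an H3K9me3 peak and the 3 peaks differ in their change. The middle 300 bases of the peak with the largest gain are shown as well, on the plus strand. CG dinucleotides, the main target of DNA methylation, are in capitals.
Tiam1 promoter inside a core peak, chr16:89974650-89974949: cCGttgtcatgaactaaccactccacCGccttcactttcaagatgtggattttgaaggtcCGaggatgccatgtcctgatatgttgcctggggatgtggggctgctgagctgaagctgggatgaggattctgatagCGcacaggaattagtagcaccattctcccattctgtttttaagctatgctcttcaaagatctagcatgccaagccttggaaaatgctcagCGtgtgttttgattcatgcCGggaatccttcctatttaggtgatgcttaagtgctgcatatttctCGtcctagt
Tiam1 promoter inside a 3′ flank peak, chr16:89818303-89818602: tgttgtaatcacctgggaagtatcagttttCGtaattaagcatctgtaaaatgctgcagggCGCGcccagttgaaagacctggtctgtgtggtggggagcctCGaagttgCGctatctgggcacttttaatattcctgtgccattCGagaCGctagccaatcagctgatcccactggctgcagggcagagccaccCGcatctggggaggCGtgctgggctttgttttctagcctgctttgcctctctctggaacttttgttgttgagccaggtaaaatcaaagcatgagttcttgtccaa
Krtap8-1 promoter, chr16:89487903-89488202: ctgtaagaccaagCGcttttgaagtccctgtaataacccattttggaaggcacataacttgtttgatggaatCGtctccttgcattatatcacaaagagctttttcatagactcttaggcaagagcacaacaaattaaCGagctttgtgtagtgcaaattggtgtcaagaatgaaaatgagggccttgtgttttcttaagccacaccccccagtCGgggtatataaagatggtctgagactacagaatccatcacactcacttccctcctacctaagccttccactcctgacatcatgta
Centre of the peak with the largest gain, chr16:89518801-89519100: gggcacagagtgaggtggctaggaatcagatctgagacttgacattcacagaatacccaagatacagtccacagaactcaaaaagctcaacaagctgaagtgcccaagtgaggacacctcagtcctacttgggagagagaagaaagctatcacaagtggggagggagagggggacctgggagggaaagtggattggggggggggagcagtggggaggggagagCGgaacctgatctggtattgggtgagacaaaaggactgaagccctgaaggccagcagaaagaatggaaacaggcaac
The motif CG reads the same on both strands. It occurred 7 and 9 times in the Tiam1 promoters and 4 times in the Krtap8-1 promoter, against a median of 7 over 32851 promoters. At least 7 were present in 52.1% of all promoters, at least 9 in 45.8% and at least 4 in 68.6%. The centre of the peak with the largest gain held 1 CG, and 85.3% of its bases were masked as repeats.

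The deposited H3K9me3 values are log2 read counts per peak that the authors matched to one distribution over the 6 ChIP libraries, so the mean over all peaks was 5.10 in each. A long peak has a higher value than a short one of the same density. Levels were therefore compared between peaks or genes as read density, as RPKM (reads scaled to the length of the peak and to all reads in peaks), from counts recovered from the values. The ChIP libraries held between 7057614 and 11836943 reads in H3K9me3 peaks, and the inputs 8838386 (WT) and 8452186 (KO). In 12 of the 251 peaks, 11 of them in Tiam1, the count of at least 1 library lay beyond the range of exact recovery and was extrapolated.

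WT replicate 3 stood apart in this window. It was the lowest of the 6 libraries in 134 of 251 peaks (53.4%) and in 20 of the 20 Tiam1 peaks, compared with 34628 of the 212313 peaks of the series (16.3%). The main differences are given with and without it. Its part in the difference between genotypes was not tested beyond that.

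Of the 251 peaks, 46 were past the limma threshold (adjusted p under 0.05 over all peaks) with higher KO values and 1 with a lower KO value. Over the series, 0.252% of peaks were called higher and 2.46% lower. The window was selected on this contrast, so nothing is read from the count. Without WT replicate 3, 20 peaks were called higher (0.166% of all peaks of the series) and 2 lower (1.69%). All 3 KO values lay above all 3 WT values in 92 peaks (36.7%), a pattern that 7.3% of all peaks showed. With WT replicate 3 set aside, all 3 KO values lay above both WT values in 100 peaks, against 12.8% of all peaks.

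**Figure D1:**
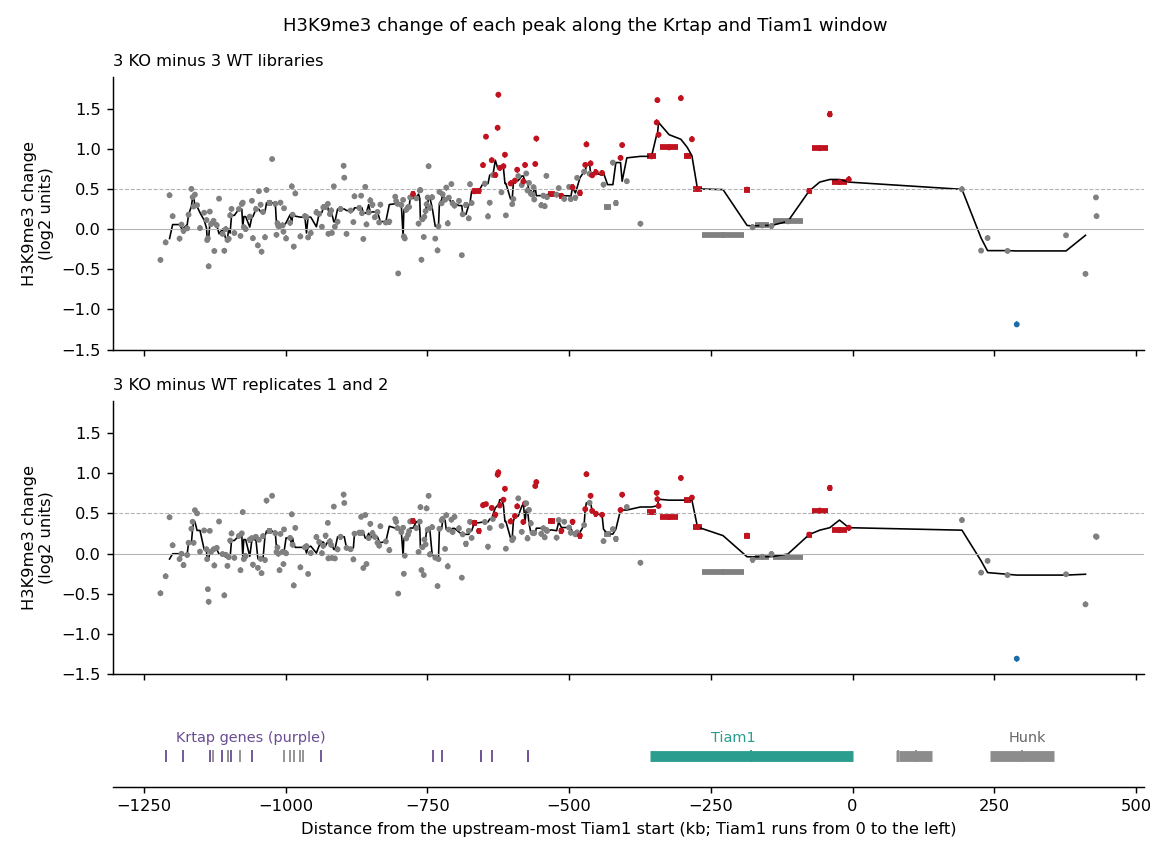
Difference between KO and WT in the deposited log2 value of each of the 251 H3K9me3 peaks (y axis, log2 units) against the distance from the upstream-most Tiam1 start (x axis, kb), with all 6 libraries (top) and without WT replicate 3 (middle). Points mark peak centres, bars the width of wide peaks, red the 46 peaks higher and blue the 1 peak lower past the limma threshold with all libraries, the line the median of 5 consecutive peaks, and the dashed line a difference of 0.5. The bottom strip shows protein-coding genes. The differences climb from the Krtap cluster on the left towards the end of Tiam1, fall to near 0 inside Tiam1, rise again towards its start and are smaller without WT replicate 3.

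Along the chromosome the difference grew towards Tiam1 in steps. In bins of 100 kb, the mean difference over peaks was between 0.06 and 0.24 in the first 5 bins, 0.34 in the sixth, 0.63 and 0.57 in the next pair, and 0.76 and 1.07 in the bins at 89700001-89800000 and 89800001-89900000. It dropped to 0.13 in the bin at 89900001-90000000, inside Tiam1. It then rose to 0.41 and 0.88 in the bins up to 90200000. Without WT replicate 3, the bins around the end of Tiam1 kept 0.42 and 0.61, the bin inside the gene had -0.03, and the last bin over Tiam1 had 0.48. The difference of WT replicate 3 from the mean of WT replicates 1 and 2 followed the same profile, at -0.06 to -0.15 in the first 5 bins, -1.03 and -1.35 at the end of Tiam1, -0.47 inside it and -1.21 at its start.

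The edges were set where the median of 5 consecutive peaks reached 0.5. This gave 6 stretches with 367.5 kb in all. The first began at 89489851, just past Krtap8-1, and ran to 89532600 with 15 peaks. The longest, with 27 peaks over 220.65 kb, ran from 89657551 to 89878200 and took in the end of Tiam1. The last, with 4 peaks over 68.1 kb, ran from 90071401 to 90139500 and ended 4269 bases before the upstream-most Tiam1 start. The peak before the first stretch, the one over Krtap8-1, had a difference of 0.48. The peak after the longest stretch had -0.07. No H3K9me3 peak lay between 90139500 and 90335851, so the upper edge coincided with the end of the called signal. Without WT replicate 3 the stretches added up to 170.25 kb in 5 parts, the longest at 89733601-89861850, and the stretch near the start of Tiam1 no longer reached 0.5.

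The window was then divided into 6 parts, with limits set after the values were seen. The core of Tiam1 was the longest run of its peaks with a difference under 0.5, and the peaks on either side were its 3′ and 5′ flanks. The stretch from Krtap8-1 to Tiam1 began with the peak over Krtap8-1.

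Tiam1 overlapped 20 peaks that covered 336.15 kb, and the mean of their values was 8.19 in WT replicate 1, 8.04 in WT replicate 2 and 7.01 in WT replicate 3. The KO libraries, in the same order, had 8.48, 8.52 and 8.50. On this scale, where each peak counts alike, the KO libraries lay above the WT libraries and close to one another. The difference was 0.75 (WT 7.75 ± 0.64, KO 8.50 ± 0.02, SD, n = 3 each), and 0.38 without WT replicate 3. Over all peaks the matching of the values sets the mean difference to none. Of the 20 peaks, 15 were called higher with all libraries (0.252% of all peaks of the series) and 9 without WT replicate 3 (0.166%). DESeq2 on recovered counts and limma without trend called 0 of them, and the window was selected on this contrast. With the reads of the 20 peaks summed, which weights the wide core peaks most, the groups overlapped, at 4.42, 3.73 and 2.57 RPKM in WT and 4.00, 4.35 and 4.42 in KO. Relative to the input, the log2 ratios were 1.00, 0.76 and 0.22 for WT and 0.62, 0.74 and 0.76 for KO. That difference was 0.045, and it turned to -0.18 without WT replicate 3.

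The 3′ flank, which holds the last exons of Tiam1, had 9 peaks over 87 kb. The mean value was 6.95, 6.80 and 5.34 in WT and 7.51, 7.50 and 7.49 in KO, a difference of 1.14, or 0.63 without WT replicate 3. All 9 peaks had every KO value above every WT value, against 7.3% of all peaks, and single differences ran from 0.50 to 1.64. The 5′ flank had 4 peaks over 67.65 kb. Its mean value was 8.54, 8.38 and 7.19 in WT and 8.98, 8.98 and 8.90 in KO, a difference of 0.91, or 0.49 without WT replicate 3. In both flanks the order was KO, then WT replicates 1 and 2, then WT replicate 3 at a distance.

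The core had 7 peaks over 181.5 kb, with mean values of 9.57, 9.45 and 9.06 in WT and 9.44, 9.55 and 9.57 in KO. WT and KO values overlapped here, with a difference of 0.16, which became 0.01 without WT replicate 3. The 5 other core peaks differed by -0.07 to 0.10, and only the peaks at chr16:89952151-89963400 and chr16:90063151-90071400 came near the limit, with 0.50 and 0.48. Both of these were called higher with all libraries, and their differences were 0.22 and 0.24 without WT replicate 3.

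**Figure D2:**
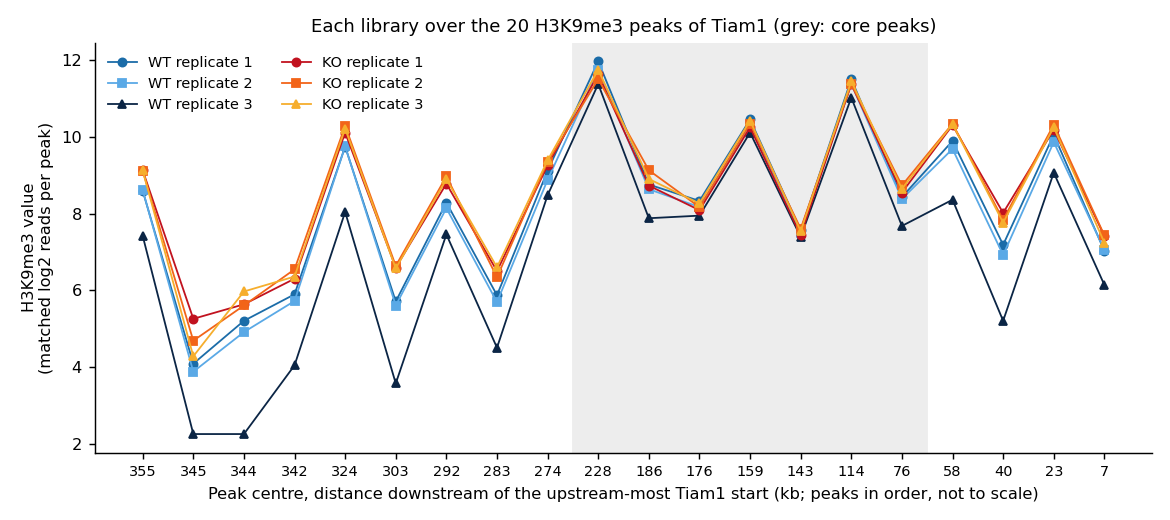
Deposited H3K9me3 value (y axis, matched log2 reads per peak) of each library over the 20 Tiam1 peaks in chromosome order (x axis, distance of the peak centre downstream of the upstream-most start, in kb, not to scale). Grey marks the 7 core peaks. KO replicates lie together above WT replicates 1 and 2 in the flanks, WT replicate 3 lies lowest at every peak, and the libraries come together in the core.

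The widest peak of the window, at chr16:89879101-89951550, spanned 72450 bases of Tiam1 introns and exons. Its values were 11.97, 11.75 and 11.38 in WT and 11.63, 11.50 and 11.75 in KO, a difference of -0.07, or -0.23 without WT replicate 3. A peak of 54000 bases inside an intron, at chr16:90002701-90056700, had 11.50, 11.38 and 11.02 in WT and 11.38, 11.38 and 11.45 in KO, a difference of 0.10, or -0.04 without it. These peaks held the highest values of the window in both genotypes, and their WT and KO values overlapped.

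Peaks over the start sites of Tiam1 transcripts differed from one another. The upstream-most start, of Tiam1-204 at 90143769, lay outside all peaks. The start of the protein-coding transcript Tiam1-213 at 89974699 lay in a core peak of 25650 bases with 10.45, 10.31 and 10.11 in WT and 10.25, 10.34 and 10.42 in KO, a difference of 0.05, or -0.04 without WT replicate 3. The start of Tiam1-201 at 89960827 lay in the neighbouring peak at chr16:89952151-89963400, with 8.76, 8.64 and 7.88 in WT and 8.73, 9.13 and 8.90 in KO. KO replicate 1 fell below WT replicate 1 there, so the groups overlapped.

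The start of the shorter protein-coding transcript Tiam1-214 at 89818352 lay in a 3′ flank peak of 32100 bases at chr16:89804101-89836200. That peak had 9.75, 9.75 and 8.04 in WT and 10.11, 10.29 and 10.21 in KO, a difference of 1.02, or 0.45 without WT replicate 3. The groups did not overlap, and WT replicate 3 was far below the others. The starts of the protein-coding transcripts Tiam1-210 and Tiam1-207 lay in peaks of the 3′ flank as well, with differences of 1.33 and 1.61, or 0.76 and 0.68 without WT replicate 3.

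The 5 largest differences of the window fell in the flanks and before Krtap11-1. The largest, 1.68, was at chr16:89518501-89519400 between Krtap7-1 and Krtap11-1, with 4.24, 3.88 and 2.06 in WT and 5.08, 5.17 and 4.96 in KO. That difference was 1.01 without WT replicate 3. The peak at chr16:89839501-89842350 in a Tiam1 intron had 5.71, 5.60 and 3.57 in WT and 6.59, 6.64 and 6.57 in KO, a difference of 1.64, or 0.94 without WT replicate 3.

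The peak at chr16:89798701-89800350 over exons of Tiam1 had 5.21, 4.91 and 2.25 in WT and 5.64, 5.61 and 5.97 in KO, a difference of 1.61, or 0.68 without that library. The intronic peak at chr16:90100501-90106800 in the 5′ flank differed by 1.43, or 0.82 without it. The peak at chr16:89797951-89798700 differed by 1.33, or 0.76 without it. In each of these 5 peaks, all KO values lay above all WT values, and WT replicate 3 was the lowest library. In the order given, WT replicate 3 held 5, 14, 6, 42 and 6 reads in them.

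Krtap8-1 lay in a peak at chr16:89481001-89488200 with 7.20, 7.25 and 6.63 in WT and 7.50, 7.43 and 7.58 in KO, a difference of 0.48, or 0.28 without WT replicate 3. The peak just past it, at chr16:89489851-89493900, differed by 0.80, or 0.60 without that library. Krtap7-1 lay in a peak at chr16:89506351-89508300 with 5.27, 5.26 and 4.39 in WT and 5.76, 5.63 and 6.12 in KO, a difference of 0.86, or 0.57 without WT replicate 3. The start of Krtap7-1 was 23 bases outside this peak, in a gap before the next peak, which differed by 0.68, or 0.43 without it. For both genes the KO values lay above all WT values.

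Krtap11-1, the last gene of the cluster towards Tiam1, lay in a peak with 6.52, 6.41 and 5.57 in WT and 6.53, 6.94 and 6.49 in KO. These values overlapped, with a difference of 0.49 that came to 0.19 without WT replicate 3. Over the 11 peaks annotated to Krtap8-1, Krtap7-1 and Krtap11-1 the mean difference was 0.62, or 0.46 without WT replicate 3.

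The other Krtap genes of the window, which lie farther from Tiam1, had smaller differences. Over their 29 peaks the mean value was 5.37, 5.30 and 5.11 in WT and 5.38, 5.32 and 5.32 in KO, a difference of 0.08, or 0.01 without WT replicate 3. In 4 of these peaks (13.8%, against 7.3% of all peaks) all KO values lay above all WT values. GENCODE M21 has 13 Krtap genes here, of which 11 overlapped a peak. Krtap21-1 and Krtap6-2, the nearest of the other Krtap genes to Krtap8-1, had mean differences of 0.40 and 0.38, or 0.33 and 0.42 without WT replicate 3. Farther away, Krtap6-3 had 0.36 and Krtap6-5 had 0.26, while Krtap16-3 and Krtap6-1 had -0.02 and -0.06. Without WT replicate 3, Krtap6-3 had 0.19, Krtap6-5 had 0.25, Krtap16-3 had -0.14 and Krtap6-1 had -0.01. The 40 peaks of all Krtap genes of the window differed by 0.23 in the mean, or 0.13 without WT replicate 3.

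The stretch from Krtap8-1 to Tiam1 had 66 peaks over 183.45 kb, and all 66 had a higher KO than WT mean, against 54.7% of all peaks. Without WT replicate 3 this held for 65 of them, against 53.9% of all peaks. The mean value was 5.59, 5.41 and 4.95 in WT and 5.93, 5.94 and 5.93 in KO, a difference of 0.61, or 0.43 without WT replicate 3. Single peaks of this stretch differed little between genotypes. The last peak before Tiam1, at chr16:89768251-89770950, had 6.17, 6.24 and 5.65 in WT and 6.19, 6.09 and 5.99 in KO, a difference of 0.07 that turned to -0.11 without WT replicate 3. A peak of 12900 bases at chr16:89705251-89718150 differed by 0.28, or 0.24 without WT replicate 3, and the smaller peaks on either side by 0.56 and 0.83, or 0.15 and 0.30 without it. The peaks at chr16:89499301-89502000 and chr16:89531851-89532600 differed by 0.16 and 0.17, or 0.09 and 0.06 without WT replicate 3.

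Beyond the start of Tiam1 the 9 peaks of the window were small, and none was called higher. Their mean difference was -0.16, or -0.22 without WT replicate 3. One peak in Hunk, a kinase gene, at chr16:90432751-90434250 was lower in KO, with 5.94, 5.30 and 5.24 in WT and 4.28, 4.03 and 4.61 in KO. It was the 1 peak of the window called lower with all libraries. At the limits of the window, the first peak inside differed by -0.38 and the last peak before it, annotated to Krtap19-5, by 0.05. The last peak inside differed by 0.16 and the first after it by -0.87.

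Of the 6 parts, the core of Tiam1 had the highest read density in each ChIP library. It was 5.54, 4.62 and 3.66 RPKM in WT and 4.31, 4.60 and 4.86 in KO. Over all peaks the mean density was 2.42, and over peaks of at least 10 kb it was 3.02 to 3.18 among the ChIP libraries. The input had 2.16 (WT) and 2.57 (KO) in the core peaks. In the 3′ flank the density was 2.79, 2.49 and 1.17 in WT and 3.35, 3.80 and 3.67 in KO, with inputs of 2.23 and 2.65. WT replicate 3 was therefore below its input in the flank, in units relative to the average peak. Density in the 5′ flank was 3.53, 2.91 and 1.42 in WT and 4.00, 4.40 and 4.18 in KO. From Krtap8-1 to Tiam1 it was 2.29, 2.04 and 1.60 in WT and 2.80, 2.78 and 2.84 in KO, and in the Krtap cluster before Krtap8-1 it was 2.17, 2.21 and 1.99 in WT and 2.53, 2.40 and 2.38 in KO. Density in KO thus rose from the cluster to the core, with the flanks in between.

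The KO input was denser than the WT input over Tiam1, by 0.24 on the log2 scale (95% exact binomial interval 0.19 to 0.29), which covers counting error of 1 library per genotype. Over the Krtap cluster before Krtap8-1 the same value was -0.06 (-0.11 to -0.01), and from Krtap8-1 to Tiam1 it was 0.07 (0.00 to 0.13). The part of the input difference in the H3K9me3 difference was not tested, but ratios to the input were computed.

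As log2 of ChIP over input density, the 3′ flank had 0.32, 0.16 and -0.93 in WT and 0.34, 0.52 and 0.47 in KO. WT replicate 1 lay just below KO replicate 1 on this scale. The 5′ flank had 0.63, 0.36 and -0.67 in WT and 0.59, 0.73 and 0.65 in KO, and there WT replicate 1 lay above KO replicate 1, so the groups overlapped. The core had 1.36, 1.09 and 0.76 in WT and 0.75, 0.84 and 0.92 in KO, with the highest values in WT replicates 1 and 2. From Krtap8-1 to Tiam1 the groups did not overlap, with -0.07, -0.24 and -0.60 in WT and 0.15, 0.14 and 0.17 in KO. They did not overlap either in the Krtap cluster before Krtap8-1, with -0.20, -0.17 and -0.32 in WT and 0.09, 0.01 and -0.0015 in KO. Over input with all libraries, the difference was 0.26 in that cluster and 0.45 from Krtap8-1 to Tiam1. It was 0.59 in the 3′ flank, 0.55 in the 5′ flank and -0.23 in the core. Without WT replicate 3 the values in the same order were 0.21, 0.31, 0.20, 0.16 and -0.39. The difference thus grew up to the 3′ flank with all libraries, while without that library the flanks did not exceed the cluster. On this scale 0 stands for the average over all peaks.

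**Figure D3:**
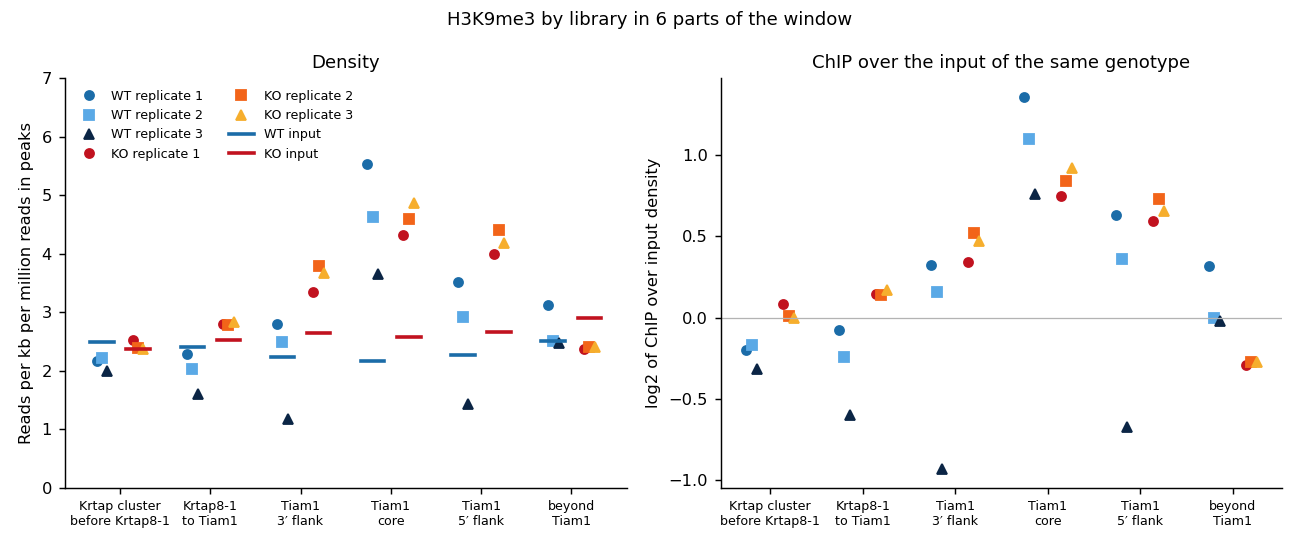
H3K9me3 in 6 parts of the window for each library, as RPKM, reads scaled to peak length and to all reads in peaks (left; horizontal lines are the inputs, 1 per genotype) and as log2 of ChIP over input density of the same genotype (right; 0 is the average over all peaks). Blue symbols are WT and red to yellow symbols KO. In density the core reaches 5.54 in WT replicate 1 and its groups overlap, while WT replicate 3 drops to 1.17 in the 3′ flank. Over input, WT replicates 1 and 2 lie above all KO libraries in the core, at 1.36 and 1.09.

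Sequence features did not enter the choice of the window, and those of Tiam1 peaks differed from the medians of the series. The median GC content was 47.7% in the 3′ flank, 47.5% in the core and 48.3% in the 5′ flank, against 39.6% over all peaks and 40.4% over the 1636 peaks of at least 10 kb. The median number of CG per 100 bases was 1.73, 1.70 and 1.64 in these parts, against 0.52 over all peaks. Peaks of the Krtap cluster before Krtap8-1 were close to the series, with 38.6% and 0.52, and the peaks from Krtap8-1 to Tiam1 lay between, with 43.6% and 1.00. Masked repeats took a median of 15.9% of the 3′ flank, 19.9% of the core and 24.9% of the 5′ flank, and 35.2% over all peaks. The 9 peaks beyond Tiam1, none of them called higher, had like values, with a GC content of 48%, 2 CG per 100 bases and 25% repeats, so these features were not limited to Tiam1. The flanks and the core of Tiam1 had close medians, which is a description of 20 neighbouring peaks.

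H3K9me2, the dimethyl form of the mark, had most of its regions in the Krtap part of the window, where H3K9me3 peaks also lay, and none over Tiam1. Its 35 regions covered 586.8 kb, of which 24 regions lay in the Krtap cluster before Krtap8-1, 9 from Krtap8-1 to Tiam1 and 2 beyond Tiam1. No region lay between 89752501 and 90551100, a gap of 798.6 kb that holds all of Tiam1 and 27 H3K9me3 peaks. A level of H3K9me2 over Tiam1 could therefore not be tested from the regions. The libraries held between 18986927 and 39080740 reads in H3K9me2 regions.

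None of the 35 regions was called by the edgeR quasi-likelihood test after Benjamini-Hochberg adjustment over all 47065 regions, where 0.00212% of regions were called. Before adjustment, 7 regions had a lower and 0 a higher KO value at an edgeR p under 0.05, which is 20% of the 35 regions. Over all regions the share in either direction was 3.12%, with 717 regions lower and 753 higher. After adjustment, DESeq2 called 0 of the 35 regions. The regions are neighbours, so these counts do not stand for 7 separate results. The median log2 fold change was -0.07 over the 35 regions and -0.18 over the 9 regions from Krtap8-1 to Tiam1, all 9 of which were negative, between -0.25 and -0.05.

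The log2 density over these 9 regions was lower in KO by 0.15 (WT 0.22 ± 0.11, KO 0.06 ± 0.02, SD, n = 3 each; two-sided exact permutation p = 0.1, the smallest that 3 against 3 allows). These regions were taken after seeing the data, because none overlapped Tiam1, so this p does not come from a planned test. Their density was 1.27, 1.12 and 1.11 RPKM in WT and 1.06, 1.05 and 1.02 in KO, so the groups did not overlap. WT replicate 1 was the highest. Without WT replicate 1 the difference was -0.09. The inputs had 1.07 in both genotypes, a log2 difference of 0.00 (95% interval -0.08 to 0.08). In the Krtap cluster before Krtap8-1 the log2 density differed by -0.03 (exact permutation p = 0.5), and the groups overlapped.

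The region with the smallest p, at chr16:89561851-89628600 around Krtap11-1, had 1.22, 1.00 and 1.05 RPKM in WT and 0.957, 0.944 and 0.867 in KO. Its log2 fold change was -0.25 ± 0.07 (SE), with an unadjusted edgeR quasi-likelihood p of 0.000976 and an adjusted p of 1.00. H3K9me3 peaks covered 80% of its length. The region over Krtap7-1, at chr16:89493751-89509650, had a log2 fold change of -0.22 ± 0.08 with an adjusted edgeR quasi-likelihood p of 1.00.

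**Figure D4:**
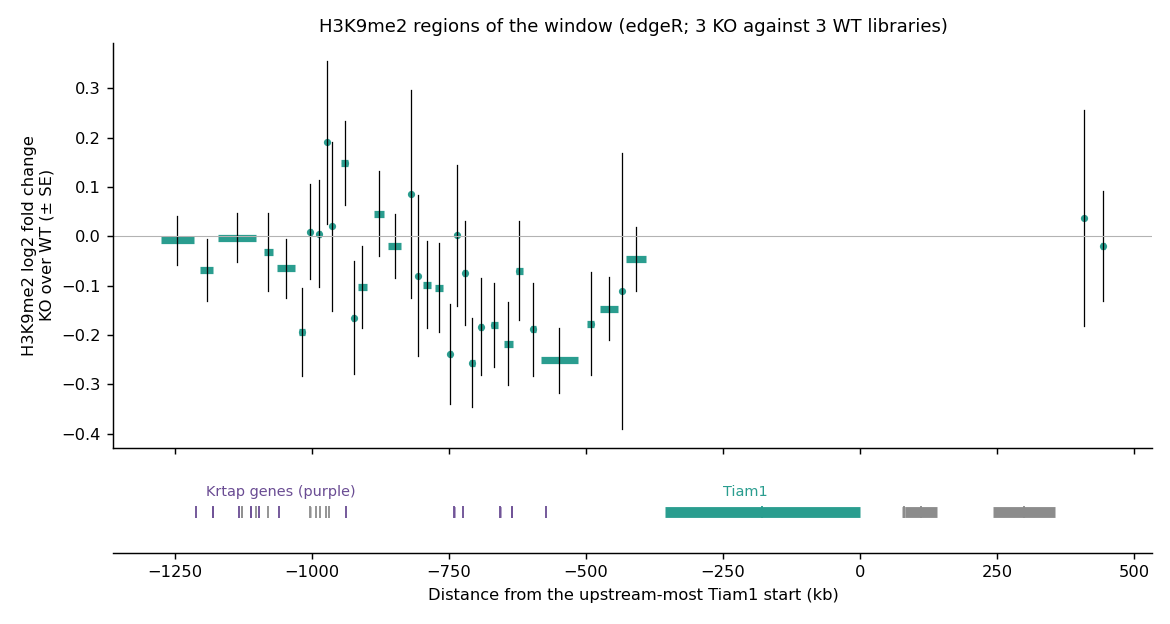
Log2 fold change of H3K9me2 in KO over WT (y axis, ± SE, edgeR, 3 libraries each) for the 35 regions of the window against the distance from the upstream-most Tiam1 start (x axis, kb). Bars show region width, points the centre, and the strip below shows protein-coding genes. The 9 regions between Krtap8-1 and Tiam1 lie between -0.25 and -0.05, and no region lies over Tiam1.

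Grip1 on chromosome 10 and Arl15 on chromosome 13 are set beside Tiam1 as other loci chosen on the same contrast in the same libraries, without a test. The mean value over 93 Grip1 peaks was 6.10, 6.04 and 5.19 in WT and 6.41, 6.70 and 6.52 in KO, a difference of 0.77, or 0.47 without WT replicate 3. Over 50 Arl15 peaks it was 5.30, 5.07 and 4.24 in WT and 6.55, 6.70 and 6.47 in KO, a difference of 1.70, or 1.39 without it. In the 13 flank peaks of Tiam1 it was 7.44, 7.29 and 5.91 in WT and 7.96, 7.96 and 7.92 in KO, a difference of 1.07, or 0.59 without it. WT replicate 3 was the lowest library in all 3 loci, and it was the lowest in 83 of the 93 Grip1 peaks and 41 of the 50 Arl15 peaks.

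**Figure D5:**
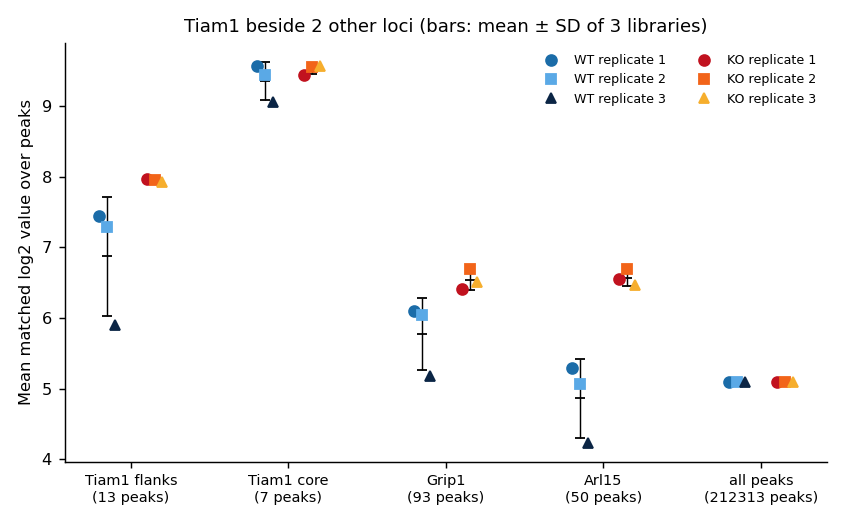
Mean deposited H3K9me3 value over the peaks of a locus (y axis, matched log2 units) for each library (symbols), with the mean ± SD of 3 libraries per genotype (bars). WT replicate 3 lies lowest at the Tiam1 flanks (5.91), Grip1 (5.19) and Arl15 (4.24), and all libraries have 5.10 over all peaks.

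Other Rac exchange factors, partners of Tiam1 and Krtap genes outside the window were taken from lists. Of 32 further genes listed here as Rac exchange factors, 21 had peaks. They had 278 peaks in all with a median difference of 0.01, against 0.03 over all peaks of the series. Whether each listed gene acts on Rac was not checked. Limma called 1 peak higher (0.36%, against 0.252% of all peaks), in Prex2. Its values were 4.17, 4.15 and 4.05 in WT and 5.02, 4.82 and 5.21 in KO (log2 difference 0.90 ± 0.25 SE, limma adjusted p = 0.0329). Another 14 peaks (5.04%) in 9 genes were called lower, against 2.46% of all peaks, among them peaks of Vav2, Trio, Kalrn and Farp1. The strongest was in Mcf2l, with 6.23, 5.96 and 6.09 in WT and 4.66, 4.82 and 4.87 in KO (log2 difference -1.31 ± 0.18 SE, limma adjusted p = 2.05e-06). Without WT replicate 3 the counts were 0 higher and 6 lower (2.16%, against 1.69% of all peaks), and DESeq2 called 0 higher and 4 lower, where it called 0.0817% and 1.51% of all the peaks it tested.

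Of 22 Rac and Par complex partners of Tiam1, 6 had peaks, 11 in all. None was called by limma or DESeq2, 2 peaks in each direction had an unadjusted limma p under 0.05 (4.07% of all peaks higher and 6.75% lower), and edgeR on recovered counts called 1 lower (2.75% of all peaks). Outside the window, 5 Krtap genes had 1 peak each, none of them called by limma, edgeR or DESeq2 or at an unadjusted limma p under 0.05. Their median difference was 0.05, with a median of 0.34 over the 2 on chromosome 16 and of -0.25 over the 3 on chromosome 11. Krtap19-4 and Krtap19-5, in the same cluster just before the window, differed by 0.64 and 0.05. On chromosome 11, Krtap3-3 differed by 0.07, Krtap31-2 by -0.34 and Krtap29-1 by -0.25.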

How the data were processed

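ChIP-seq libraries of H3K9me3 and H3K9me2 and their inputs were grouped by the sample titles. The window, its 6 parts and the gene lists were chosen with earlier results of these data known. Per the methods of the study, reads were trimmed (Trim Galore 0.4.4), mapped to GRCm38 (Bowtie 2 2.3.2), imported into SeqMonk without duplicates at a mapping quality of at least 20, and MACS peaks were called once per mark on all ChIP libraries against both inputs. A peak is therefore not evidence for a single library.

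For H3K9me3 the authors deposited log2 reads per peak after matching the distributions of the ChIP libraries, which removes depth and any shift over all peaks. Inputs were left unmatched. For H3K9me2 the authors deposited a signal per region, namely the average of the reads in its MACS peaks, and multiplying it by the number of peaks gave sums of reads. A shorter H3K9me2 table of counts deposited by the authors was used to check these sums, and 24 of 24 values were whole and at most the sum of their region. A shorter H3K9me3 table with the p-values of the authors was not used. Another 8 columns held standard deviations and were not used.

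H3K9me3 read counts were recovered by ranking the distinct values of each library (tolerance 0.002 in log2 units), exactly for 99.7% of peaks. Densities used all reads in peaks as the total, and ChIP over input used the matching input. H3K9me3 was fitted with limma 3.58.1 (trend) over all 212313 peaks and H3K9me2 with the edgeR 4.0.16 quasi-likelihood test and TMM over 47065 regions, with genotype as the single term, two-sided, Benjamini-Hochberg adjusted. Both were tested on simulated data. Alternatives were DESeq2 1.42.0, edgeR on recovered counts, other filters and thresholds, an input correction, leaving out each library in turn, and a replicate block. Named peaks were the 5 largest gains, the peaks at Tiam1 starts, at Krtap7-1 and Krtap8-1, at the edges, the widest, and those that did not gain. Genes came from GENCODE M21 and GC content and repeats from GRCm38.p6. Intervals cover counting error only. R 4.3.3 and Python 3.11.15 were used.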

Additional observations from a re-analysis of the deposited data

How the results depend on the processing

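The mean H3K9me3 differences over Tiam1 and over Krtap peaks kept their direction under the alternatives that average over peaks, between 0.38 and 0.97 for Tiam1 and between 0.13 and 0.30 for Krtap genes; the lowest values were those without WT replicate 3. From reads summed over the peaks and divided by the input, a scale added after seeing the data, the Tiam1 difference was 0.045 and turned to -0.18 without WT replicate 3, while that of Krtap genes was 0.32 and 0.22. Averaged over peaks with the input correction, the core turned from 0.16 to -0.05. The deposited gene model of Tiam1, chosen after seeing the data, gave 0.83. Counts of called peaks moved more. Peaks called higher numbered 0 with limma without trend (74 at an unadjusted p under 0.05), 8 with DESeq2, 93 with the input correction and 20 to 52 with a library left out, against 46; the 20 were without WT replicate 3. Peaks called lower numbered 0 without trend, 8 with the input correction and 0 to 2 with a library left out, against 1, with 0 without WT replicate 1 and 2 without WT replicate 3. The gained stretches added up to 866 kb at a limit of 0.3 and to 170 to 773 kb with a library left out, the shortest without WT replicate 3 and the longest without WT replicate 1 (686 kb without KO replicate 1). These counts cannot be set against each other directly, since the settings also differ over the whole series: the input correction called 14.7% of all peaks higher and 11.5% lower, DESeq2, which tested 203 of the 251 peaks, 0.0817% and 1.51%, and limma without trend 0.00754% and 0.0410%. The causes were not tested.

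Replicate numbers did not pair libraries: the correlation of their deviations from the group means was between -0.0147 and 0.00898 for H3K9me3 and between 0.0175 and 0.179 for H3K9me2. With a replicate block, 48 H3K9me3 peaks were called higher and 1 lower, and the block called 1 H3K9me2 region, against 0. That region, around Krtap11-1, had a log2 fold change of -0.25 with an edgeR quasi-likelihood adjusted p of 0.00397. The H3K9me2 change over Tiam1 could not be computed because no region overlaps the gene. In its place the level of the 9 regions from Krtap8-1 to Tiam1 was taken after seeing the data; it was -0.15, and -0.09 to -0.19 with a library left out (permutation p = 0.2, the smallest that 2 against 3 allows). H3K9me2 calls stayed at 0 under the other alternatives.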
